A study of Mus musculus with 8 samples.

Results

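The 40 mitosis and spindle genes described here encode the proteins that take a cell from the start of mitosis to its division into daughter cells. They were chosen by name, as a list of well known mitotic genes in 9 roles, with earlier results of these data known. Each was read from the probe with the highest mean Cy3 signal over the 8 arrays. All 40 were among the 28783 genes named on the array and among the 23388 tested, and each was well above background in Cy3 on all 8 arrays and saturated on none. In the files Ndc80 and Nuf2 carry older names and were matched through their accessions, and Cdc2a is the gene now called Cdk1.

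Each culture paired MC3T3-E1 cells, osteoblasts of a mouse calvarial line, with tumour cells. The tumour cells carried an empty vector or overexpressed Jagged1, a membrane ligand of Notch receptors, and each kind of co-culture was given either DMSO, the carrier, or MRK-003, which blocks gamma-secretase and so the cut that frees the active part of Notch. This gave 4 groups with 2 biological replicates each, all in alpha MEM with 10% FBS, named below by tumour cell and drug (vector DMSO, for example). Every array carried 1 co-culture in Cy3 and the same commercial mouse reference RNA in Cy5, so each level below is a log2 ratio of sample over reference. Replicate 1 of every group was on slide 1 and replicate 2 on slide 2. The sources used here do not give the tumour line, its species, the length of treatment or any separation of the cell types. In such bulk RNA, fewer dividing cells, less mitotic RNA per cell, and a different share of osteoblasts and tumour cells cannot be told apart.

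In mitosis, cyclin B with the kinase Cdk1, joined by the Polo and Aurora kinases, starts chromosome condensation and the building of a spindle of microtubules. Kinetochores tie each chromosome to the spindle, and a checkpoint holds the cell until all are attached. The anaphase-promoting complex, switched on by Cdc20, then marks cyclin B and securin for destruction, separase cuts cohesin, and the centralspindlin and Ect2 proteins direct cleavage of the cell. Most of these genes are transcribed late in the cell cycle, through promoters in which a sequence called the cell cycle genes homology region (CHR) and CCAAT boxes are common.

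These promoter letters were looked up because most members moved together in the arrays. RefSeq promoters (build GRCm38.p6, 250 bases before to 50 after the start) were at hand for 35 of the 40 members. The letters TTTGAA or TTCGAA (CHR), read on both strands, were in the promoters of 28 of 35 members (80.0%) and in 19.2% of the 32851 promoters in the table. CCAAT on either strand was likewise in 28 of 35, against 37.4% of all promoters, and both motifs together were in 25 of 35 (71.4%) against 7.52%. The letters GTGGGAA or ATGGGAA, the core that the Notch partner RBPJ binds, were in 3 of 35 (8.57%: Aurka, Ccnb1 and Prc1) and in 11.2% of all promoters. In Ccnb1 these letters overlap a CCAAT box. The 120 bases before the start are shown for 3 members that were lower with Jagged1 (Kif11, Cdc2a and Nusap1) and for 2 members that were not called in any fit of that comparison (Cdc20 and Espl1), with CHR and CCAAT letters of either strand in capitals:
Kif11, chr19:37376262-37376381, plus strand: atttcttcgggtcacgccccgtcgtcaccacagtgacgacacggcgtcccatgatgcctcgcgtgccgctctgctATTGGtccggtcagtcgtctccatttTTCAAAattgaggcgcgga
Cdc2a, chr10:69352913-69353032, minus strand: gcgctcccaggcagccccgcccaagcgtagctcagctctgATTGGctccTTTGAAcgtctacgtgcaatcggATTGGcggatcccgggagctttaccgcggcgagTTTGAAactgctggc
Nusap1, chr2:119618178-119618297, plus strand: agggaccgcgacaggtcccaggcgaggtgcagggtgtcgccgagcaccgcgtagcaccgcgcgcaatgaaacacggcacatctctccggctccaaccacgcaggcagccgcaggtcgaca
Cdc20, chr4:118437344-118437463, minus strand: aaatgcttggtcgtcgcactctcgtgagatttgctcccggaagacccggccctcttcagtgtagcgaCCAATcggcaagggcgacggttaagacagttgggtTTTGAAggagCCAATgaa
Espl1, chr15:102296173-102296292, plus strand: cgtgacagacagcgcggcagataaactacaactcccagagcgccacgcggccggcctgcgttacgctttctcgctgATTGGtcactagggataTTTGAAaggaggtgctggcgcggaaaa

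Kif11, Cdc2a, Cdc20 and Espl1 hold both motifs within these bases and Nusap1 holds neither. CHR letters were in 13 of the 18 members with a promoter that were called lower with Jagged1 when the slide was in the fit (below), and in 15 of the other 17. CCAAT was in 11 of 18 and in 17 of 17. The 5 members without a promoter at hand (Aurkb, Incenp, Tpx2, Kif20a and Ccna2) were all among those called lower. The other 17 were not unchanged genes, since all but Cdc20 also had a lower mean with Jagged1. A match of letters is a description of the sequence and not evidence of binding.

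With Jagged1 tumour cells in DMSO, 39 of the 40 members had a lower mean than with vector tumour cells. The median difference was -0.51 on the log2 scale, a 1.43-fold lower level, against -0.01 over all 23388 genes tested. The middle of the list was narrow, with quartiles of -0.64 and -0.44, and the differences ran from -0.92 for Ect2 to 0.09 for Cdc20. The median was -0.61 on slide 1 and -0.44 on slide 2, and 37 members were lower on both slides, against 34.4% of all genes. In 34 members both Jagged1 arrays lay below both vector arrays, against 22.0% of all genes.

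No member passed an adjusted p under 0.05 in limma on the 4 group means, where 0.0385% of genes were called lower; the smallest adjusted p was 0.247, for Spag5. At an unadjusted p under 0.05, 22 members were lower and 0 higher, against 4.53% and 3.22% of all genes. The median over members was higher on slide 2 than on slide 1 in every group (-0.25 against -0.53 in vector DMSO, for example), and the difference between slides entered the spread of that fit. With the replicate number, which is also the slide, as a block, limma called 23 members lower and 0 higher, against 2.40% of all genes called lower. The median SE of a member's difference was 0.20 without the block and 0.096 with it. Of the 23 calls, 2 (Kif20a and Nusap1) were left when the local background was used as given, with no limit on its extreme spots. That setting called 107 of all genes in either direction, against 881 with the limit. Leaving out any array left a group with a single array, so the calls of those blocked fits are not listed. Every one of these fits called fewer members than the fit on all arrays, and some called few or none. The number of all genes called also varied widely between these fits. Their medians over members ran from -0.59 to -0.46, and 36 to 39 members stayed negative.

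**Figure D1:**
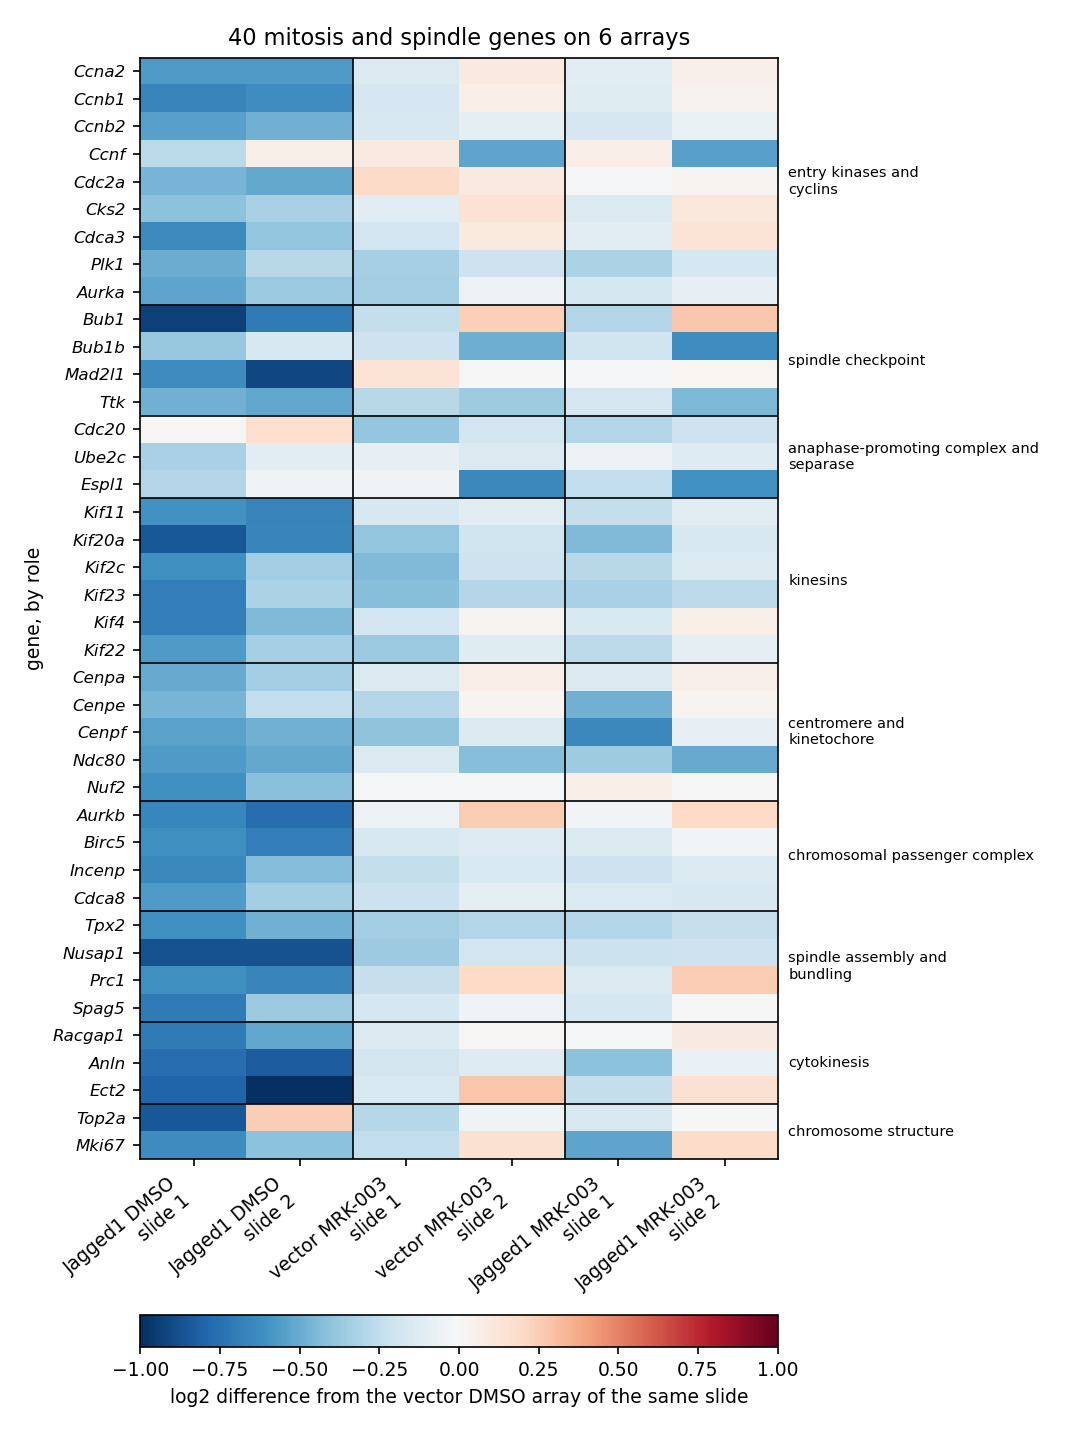
Log2 difference of each of the 40 members (rows, by role) from the vector DMSO array of the same slide, on the other 6 arrays (columns); blue is lower and red higher than vector DMSO, and differences past 1 in size share the end colour. The 2 Jagged1 DMSO columns are the darkest blue, with medians of -0.61 and -0.44, while the 4 MRK-003 columns have medians of -0.19, -0.09, -0.18 and -0.07.

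The role of entry kinases and cyclins held 9 genes, of which Cdca3 and Cks2 are neither kinases nor cyclins. Of these 9, 8 had no overlap between Jagged1 and vector arrays in DMSO. With the block 5 were called lower: Ccna2, Ccnb1, Ccnb2, Cdc2a and Cdca3. Ccna2, the cyclin of S phase and early mitosis, measured -1.07 and -0.95 in vector DMSO (slides 1 and 2), -1.64 and -1.51 in Jagged1 DMSO, -1.22 and -0.85 in vector MRK-003, and -1.18 and -0.90 in Jagged1 MRK-003. Both Jagged1 DMSO arrays were the lowest of their slide and lay below all other 6 arrays. The difference was -0.57 on slide 1 and -0.56 on slide 2, with a blocked SE of 0.096 and a blocked adjusted p of 0.027 in limma. Ccnb2, a B-type cyclin, measured -0.95 and -0.72 in vector DMSO, -1.50 and -1.21 in Jagged1 DMSO, -1.11 and -0.82 in vector MRK-003, and -1.12 and -0.79 in Jagged1 MRK-003, again with the Jagged1 DMSO arrays below all others. Its difference was -0.51, with a blocked adjusted p of 0.022. Plk1, the Polo kinase of mitotic entry, measured -0.24 and -0.26 in vector DMSO, -0.73 and -0.54 in Jagged1 DMSO, -0.57 and -0.47 in vector MRK-003, and -0.56 and -0.43 in Jagged1 MRK-003. Here the vector DMSO arrays were the 2 highest, and the MRK-003 arrays of both kinds of co-culture overlapped the Jagged1 DMSO arrays. Plk1 differed by -0.39 (blocked adjusted p 0.064), Aurka, the Aurora kinase of the spindle poles, by -0.45 (0.054), and Cks2, a small partner of Cdk1, by -0.37 (0.093), and none of these passed. Ccnf, the F-box cyclin, differed least in this role, by -0.11, with -0.27 on slide 1 and 0.06 on slide 2.

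The spindle checkpoint genes had a median of -0.63. Mad2l1, the checkpoint protein that captures Cdc20, measured -0.36 and 0.12 in vector DMSO, -0.98 and -0.79 in Jagged1 DMSO, -0.22 and 0.12 in vector MRK-003, and -0.37 and 0.14 in Jagged1 MRK-003. Its Jagged1 DMSO arrays lay below the other 6, and the difference of -0.77 had a blocked adjusted p of 0.013. The checkpoint kinases Bub1 (-0.82) and Ttk (-0.50) were also called lower with the block, with blocked adjusted p of 0.029 and 0.040. Bub1b, which encodes BubR1, differed by -0.27 with overlapping arrays, and its blocked adjusted p was 0.40.

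The 3 genes that act at the metaphase to anaphase step moved least, with a median of -0.16 and no call. Cdc20, the activator of the anaphase-promoting complex, was the exception to the direction of the list. It measured -0.90 and -0.91 in vector DMSO, -0.89 and -0.74 in Jagged1 DMSO, -1.29 and -1.10 in vector MRK-003, and -1.19 and -1.12 in Jagged1 MRK-003. The 4 DMSO arrays were thus all above the 4 MRK-003 arrays, and the Jagged1 and vector levels within each treatment differed by 0.09 and 0.04. Ube2c, the ubiquitin-conjugating enzyme of that complex, differed by -0.21 and Espl1, which encodes separase, by -0.16, with blocked adjusted p of 0.30 and 0.71. Espl1 was chosen for mention after its values were seen: both MRK-003 arrays of slide 2, at -1.58 and -1.54, were lower than its other 6 arrays, which lay between -1.17 and -0.88.

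All 6 kinesins, motors that move along microtubules, had Jagged1 DMSO arrays below the vector DMSO arrays, with a median of -0.53. Kif20a, which carries cargo to the central spindle (-0.76, blocked adjusted p 0.011), Kif11, which pushes the spindle poles apart (-0.64, 0.014), Kif4, the chromokinesin (-0.56, 0.027), and Kif2c, a microtubule depolymerase (-0.48, 0.044), were called lower with the block. Kif4 measured -0.96 and -0.91 in vector DMSO, -1.64 and -1.35 in Jagged1 DMSO, -1.15 and -0.88 in vector MRK-003, and -1.11 and -0.85 in Jagged1 MRK-003. The Jagged1 DMSO arrays of Kif4 lay below its other 6. Kif22, a motor on chromosome arms, measured -0.37 and -0.15 in vector DMSO, -0.94 and -0.48 in Jagged1 DMSO, -0.74 and -0.27 in vector MRK-003, and -0.63 and -0.24 in Jagged1 MRK-003. Here Jagged1 DMSO was the lowest array on each slide, but the second Jagged1 DMSO array lay above both MRK-003 arrays of slide 1. Its difference was -0.45 with a blocked adjusted p of 0.051, and Kif23, the motor of centralspindlin, differed by -0.50 with 0.0545, so neither passed.

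Of the 5 centromere and kinetochore genes, Ndc80 (-0.54) and Nuf2 (-0.51), partners in the complex that grips microtubule ends, were called lower with the block, with adjusted p of 0.041 and 0.033. Nuf2 measured 0.31 and 0.47 in vector DMSO, -0.30 and 0.05 in Jagged1 DMSO, 0.29 and 0.46 in vector MRK-003, and 0.38 and 0.47 in Jagged1 MRK-003. The Jagged1 DMSO arrays were again the 2 lowest of 8, and the other 6 lay between 0.29 and 0.47. Cenpe, a kinetochore motor, measured -0.41 and -0.16 in vector DMSO, -0.87 and -0.40 in Jagged1 DMSO, -0.70 and -0.13 in vector MRK-003, and -0.89 and -0.13 in Jagged1 MRK-003. Its groups overlapped, and its difference of -0.36 did not pass in limma (blocked SE 0.13, blocked adjusted p 0.18). The difference was -0.47 on slide 1 and -0.25 on slide 2. Cenpa, the histone of the centromere, differed by -0.42 (0.0525) and Cenpf by -0.51 (0.11).

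The chromosomal passenger complex, which corrects faulty attachments, had a median of -0.60, and 3 of its 4 genes were called lower with the block. Birc5, which encodes survivin, measured -0.38 and 0.06 in vector DMSO, -0.99 and -0.63 in Jagged1 DMSO, -0.54 and -0.07 in vector MRK-003, and -0.52 and 0.03 in Jagged1 MRK-003. Its Jagged1 DMSO arrays lay below the other 6, with a difference of -0.65 and a blocked adjusted p of 0.013. Aurkb, the kinase of the complex, differed by -0.71 (0.027) and Incenp, its scaffold, by -0.54 (0.025). Cdca8, which encodes borealin, differed by -0.45 and stood just outside the threshold, at a blocked adjusted p of 0.0503.

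Among the spindle assembly and bundling genes, Nusap1, which binds and bundles microtubules near chromosomes, had the smallest blocked adjusted p of all members, 0.00467. It was named after its values were seen. Nusap1 measured -0.95 and -0.38 in vector DMSO, -1.82 and -1.26 in Jagged1 DMSO, -1.31 and -0.58 in vector MRK-003, and -1.16 and -0.59 in Jagged1 MRK-003. The levels of the 2 slides differed widely, but the Jagged1 difference was -0.87 on each. Spag5, which encodes astrin, a spindle protein, measured -0.19 and -0.23 in vector DMSO, -0.90 and -0.60 in Jagged1 DMSO, -0.36 and -0.27 in vector MRK-003, and -0.37 and -0.24 in Jagged1 MRK-003. Its Jagged1 DMSO arrays lay below all others, and its difference of -0.53 had a blocked adjusted p of 0.038. Prc1, the bundler of the central spindle, measured -0.20 and 0.23 in vector DMSO, -0.82 and -0.43 in Jagged1 DMSO, -0.43 and 0.43 in vector MRK-003, and -0.35 and 0.48 in Jagged1 MRK-003. The second Jagged1 DMSO array of Prc1 and the first vector MRK-003 array both read -0.43, and the difference of -0.64 did not pass (0.057). Tpx2, which starts microtubules near chromatin, was called at -0.55 (0.020).

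The cytokinesis genes had the lowest median of the 9 roles, -0.80, and all 3 were called lower with the block. Racgap1, the GTPase-activating part of centralspindlin, measured -0.76 and -0.63 in vector DMSO, -1.47 and -1.15 in Jagged1 DMSO, -0.91 and -0.62 in vector MRK-003, and -0.77 and -0.54 in Jagged1 MRK-003. Its Jagged1 DMSO arrays lay below the other 6, and the difference of -0.61 had a blocked adjusted p of 0.016. Ect2, the exchange factor that switches on RhoA at the cell equator, differed most of all members, by -0.92 or 1.90-fold, with -0.80 on slide 1 and -1.05 on slide 2 (blocked adjusted p 0.033). Anln, which encodes anillin of the contractile ring, differed by -0.80 (0.017). Of the chromosome structure genes, Mki67, the proliferation marker Ki-67, measured -1.10 and -1.13 in vector DMSO, -1.73 and -1.54 in Jagged1 DMSO, -1.35 and -0.98 in vector MRK-003, and -1.63 and -0.95 in Jagged1 MRK-003. The first Jagged1 MRK-003 array of Mki67 lay between its Jagged1 DMSO arrays, and the difference of -0.52 did not pass (0.14). Top2a, which untangles DNA, was the member whose slides went opposite ways in this comparison most widely, with -0.84 on slide 1 and 0.25 on slide 2.

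**Figure D2:**
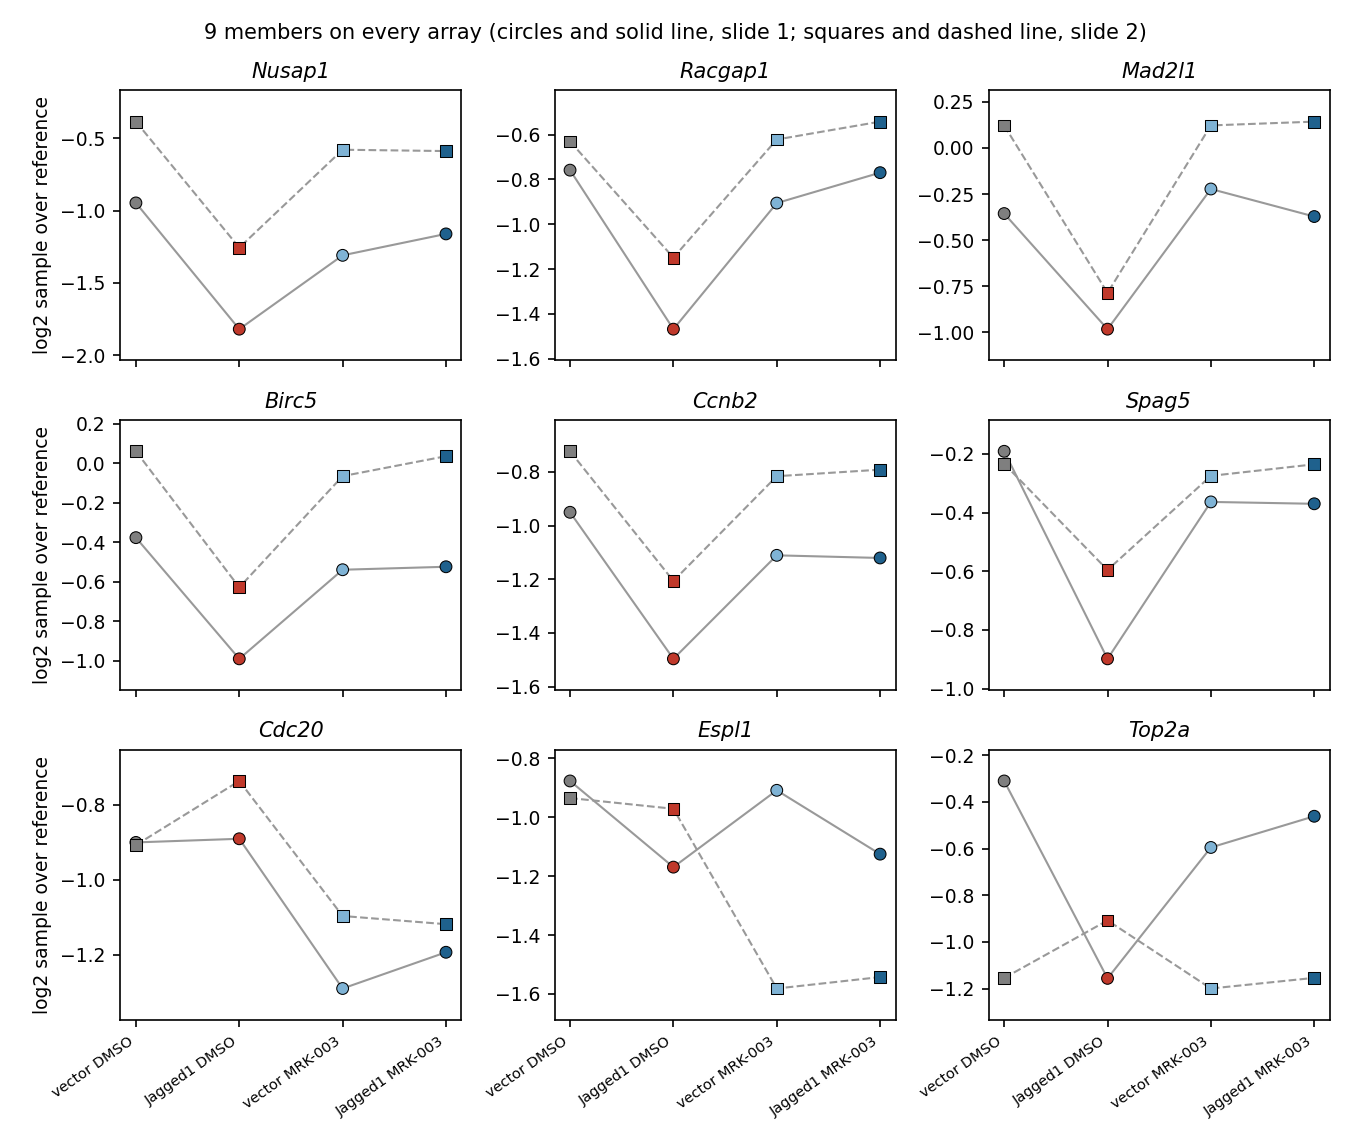
Log2 ratio of sample over reference (y axis) for 9 members in the 4 groups (x axis), with 1 point per array; circles joined by a solid line are slide 1 and squares joined by a dashed line are slide 2. The first 6 members dip in Jagged1 DMSO on both slides, Cdc20 is lower on the 4 MRK-003 arrays, Espl1 is low on the MRK-003 arrays of slide 2 and Top2a is lower with Jagged1 on slide 1 but not on slide 2.

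With MRK-003 present, Jagged1 and vector co-cultures had nearly the same levels of these genes. The median difference was 0.01, against 0.0019 over all genes, 18 members were lower and 22 higher, and the range was -0.14 for Cdc2a to 0.11 for Kif2c. limma called 0 members and 0 of all genes (0%), with and without the block, and 0 members had an unadjusted p under 0.05, against 0.210% of all genes. The SE of these differences had a median of 0.20 and a blocked median of 0.096. No member's difference could be told from 0 in either fit, and differences well above these SEs could have been missed. In DMSO, for example, -0.92 for Ect2 was not called without the block, nor was -0.64 for Prc1 with it. Of the members 1, Ndc80, had non-overlapping arrays, with a difference of -0.14, against 16.1% of all genes. The median was 0.02 on each slide.

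In the Jagged1 co-cultures, MRK-003 went with higher levels of 36 of the 40 members. The median difference was 0.37, a 1.29-fold higher level, against 0.01 over all genes, and it was 0.37 on slide 1 and 0.41 on slide 2. Of the members 32 were higher on both slides, against 34.2% of all genes, and in 23 both MRK-003 arrays lay above both DMSO arrays, against 24.0%. This comparison shares its 2 Jagged1 DMSO arrays with the comparison of Jagged1 and vector cells above, so the opposite signs are not independent. limma called 0 members without the block, against 1.01% of genes called higher, with a smallest adjusted p of 0.118 for Racgap1 and with 10 members higher and 1 lower at an unadjusted p under 0.05, against 7.56% and 6.02% of all genes. With the block it called 21 members higher and 0 lower, against 5.71% of genes called higher. Of the 21, 4 were left with no limit on the local background (Cdc2a, Mad2l1, Birc5 and Nusap1). That setting called 507 of all genes in either direction, against 2231 with the limit. Each blocked fit without 1 array called fewer members than the fit on all arrays, and some called few or none. The number of all genes called again varied widely between these fits. The median over members in those fits ran from 0.37 to 0.42.

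**Figure D3:**
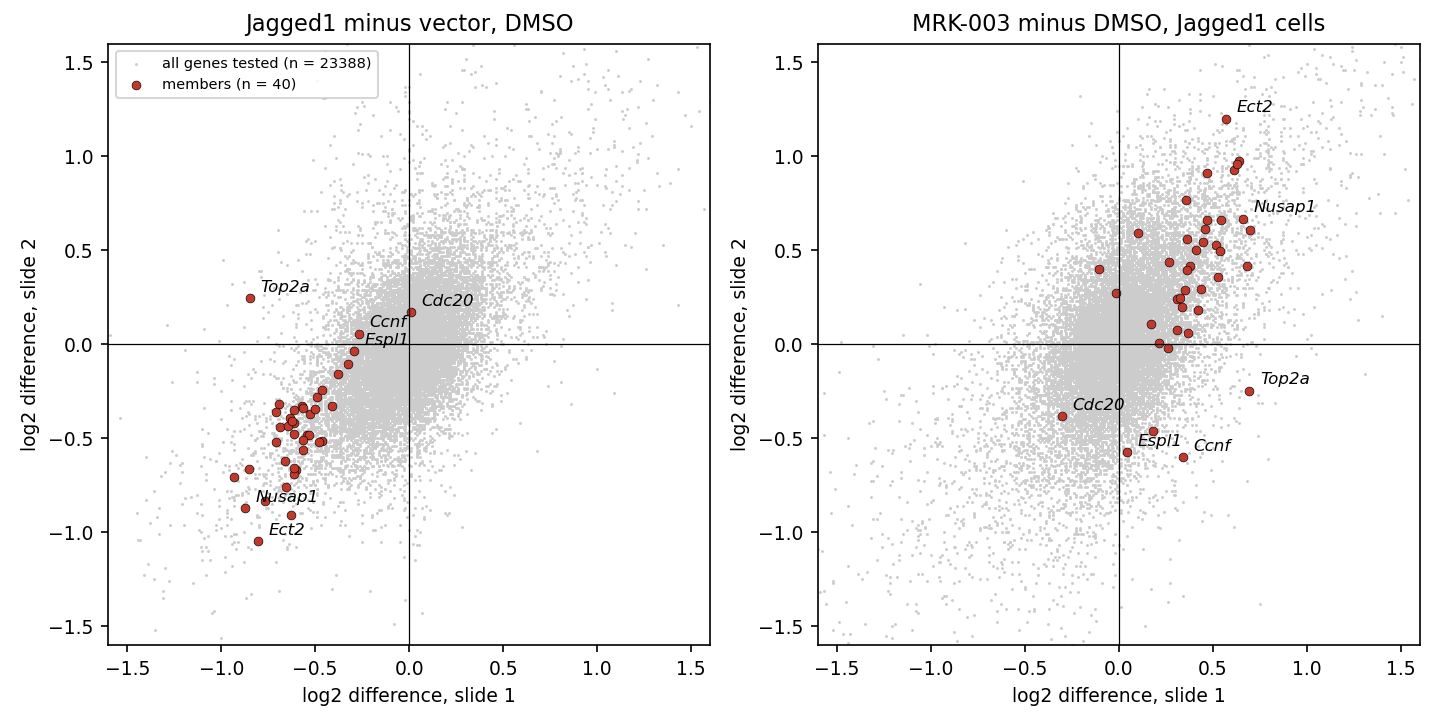
Log2 difference on slide 1 (x axis) against slide 2 (y axis) for Jagged1 minus vector in DMSO (left) and MRK-003 minus DMSO with Jagged1 cells (right); red points are the 40 members and grey points all 23388 genes tested, and grey points past 1.6 on either axis are not drawn. Of the members 37 lie below 0 on both axes on the left and 32 above 0 on both axes on the right, and Top2a has opposite signs on the slides in both.

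By role, MRK-003 in the Jagged1 co-cultures gave medians of 0.65 for the cytokinesis genes, 0.55 for spindle assembly and bundling, 0.48 for the checkpoint, 0.46 for the passenger complex, 0.40 for entry kinases and cyclins, 0.36 for kinesins, 0.29 for the 2 chromosome structure genes and 0.15 for the kinetochore genes. Racgap1 differed by 0.65 with a blocked adjusted p of 0.0056, Mad2l1 by 0.77 with 0.0056, and Aurkb by 0.79 with 0.0089. Ect2 had the widest difference, 0.88 (blocked adjusted p 0.020), of which 0.57 was on slide 1 and 1.20 on slide 2. Nuf2 differed by 0.55 (0.014), Kif4 by 0.52 (0.017), Ccna2 by 0.54 (0.016), Spag5 by 0.44 (0.040), Birc5 by 0.56 (0.0098), Ccnb2 by 0.40 (0.026) and Prc1 by 0.69 (0.026). The brightest members of 3 roles, Kif22 (0.27, 0.12), Cenpe (0.13, 0.60) and Mki67 (0.35, 0.23), did not pass. The 3 genes of the metaphase to anaphase step had a median of -0.26, and the members with a negative difference were Cdc20 (-0.34), Espl1 (-0.26), Bub1b (-0.14) and Ccnf (-0.13). For the last 3 the slides went opposite ways, with differences above 0 on slide 1 (0.04, 0.18 and 0.34) and below 0 on slide 2 (-0.57, -0.46 and -0.60).

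In the vector co-cultures, MRK-003 went with slightly lower levels of 35 members, with a median of -0.14 against 0.01 over all genes and a range from -0.36 for Kif23 to 0.15 for Cdc2a. Of the members 24 were lower on both slides, against 25.8% of all genes. No member and no gene was called without the block (0%), and 2 members were lower at an unadjusted p under 0.05, near the 2.55% of all genes that were. With the block limma called 0 members, against 0.0299% of genes called in either direction, and the smallest blocked adjusted p of a member was 0.289, for Tpx2. Leaving out 1 array moved this median between -0.31 and 0.03, and it was 0.03 without vector MRK-003 replicate 1. In 18 of the 40 members MRK-003 went with a higher level on both slides with Jagged1 cells and a lower one on both slides with vector cells, against 5.45% of all genes.

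The difference between the Jagged1 effects in DMSO and in MRK-003, which is also the difference between the 2 MRK-003 effects with its sign turned, was tested as an interaction. It was negative for 39 members, with a median of -0.56 against -0.01 over all genes, and 37 members were lower on both slides, against 33.0% of genes. limma called 0 members without the block, against 0.00855% of genes called in either direction, and 9 were lower at an unadjusted p under 0.05, against 2.33% of all genes. With the block it called 1, Nusap1 (-0.94, SE 0.12, adjusted p 0.039), against 0.372% of genes called in either direction. With the block and no limit on the local background it called 0 members and 0 of all genes. For the other 39 a difference between the effects in DMSO and in MRK-003 was therefore not shown gene by gene. The average effect of MRK-003 over both co-cultures had a median of 0.14, with 28 members above 0. limma called 0 members, against 1.90% of genes, with 3 higher and 1 lower at an unadjusted p under 0.05; the shares over all genes were 6.79% and 6.82%, so these counts were not above the background. With the block it called Mad2l1 (0.42), Cdc2a (0.32), Aurkb (0.45), Racgap1 (0.29) and Ccnb1 (0.28) higher and Cdc20 (-0.32) lower, against 9.12% of genes in either direction. None of these 6 was called with the block and no limit on the local background, where 604 of all genes were.

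**Figure D4:**
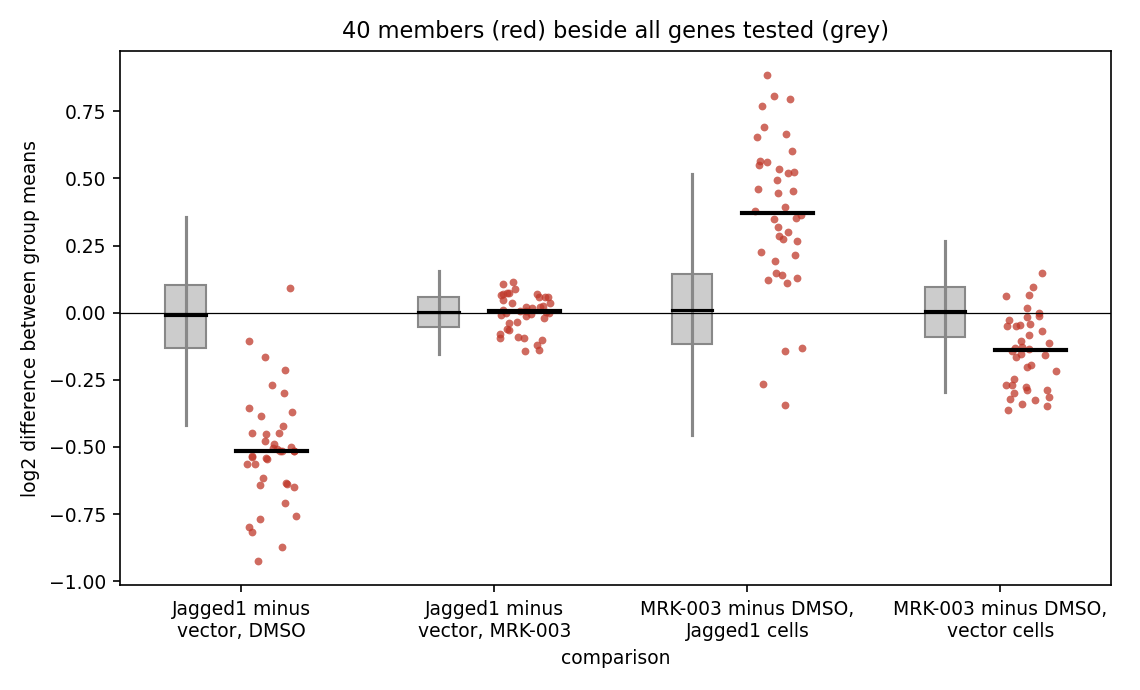
Log2 difference between group means (y axis) in 4 comparisons (x axis); red points are the 40 members with their median as a black bar, and beside them all genes tested are drawn as a grey box from the lower to the upper quartile with its median and a line from the 5th to the 95th percentile. The members' medians are -0.51, 0.01, 0.37 and -0.14 from left to right.

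On each slide the 4 arrays can be ranked for every gene without any fit. The Jagged1 DMSO array was the lowest of its slide for 37 members on slide 1 and 34 on slide 2, and on both slides for 32 of 40, against 19.5% of all genes. The exceptions were Ccnf, Bub1b, Cdc20, Ube2c, Espl1, Cenpe, Cenpf and Top2a. The vector DMSO array was the lowest for no member on either slide. Between Jagged1 MRK-003 and vector DMSO the members' median difference was -0.14, with 33 lower and 7 higher. Of the 40, 25 were within 0.2 of 0, and the range was from -0.43 for Espl1 to 0.09 for Aurkb. The median absolute difference between these arrays was 0.18 on slide 1 and 0.13 on slide 2 over members. Over all genes it was 0.096 and 0.14. All 40 members had a group mean below the reference RNA in Jagged1 DMSO, 33 did in vector DMSO and 36 in each MRK-003 group; these levels keep any dye bias, which the differences between groups do not.

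The other 26 probes for 21 of the members gave a check on the readings. Of the 21 that were bright enough to be well above background on every array, 18 were lower with Jagged1 in DMSO and 17 higher with MRK-003 in Jagged1 co-cultures. The second probes of Mad2l1 (-0.74 and 0.72 in these comparisons), Kif20a (-0.82 and 0.57), Kif23 (-0.49 and 0.26) and the 2 of Ccnb1 (-0.57 and 0.59, -0.57 and 0.62) were close to the ones used. Several second probes differed less, most of them with far dimmer signals: those of Anln gave -0.11 and 0.05, of Racgap1 -0.27 and 0.10, of Nusap1 -0.36 and 0.10, of Spag5 0.04 and -0.22, of Cdc2a 0.01 and 0.13, and of Cenpa 0.08 and -0.05. The second probe of Mki67 was not dim, with a mean Cy3 signal of 1479, and gave -0.32 and -0.0095 where the probe used gave -0.52 and 0.35. For Spag5, Cdc2a and Cenpa the direction with Jagged1 thus rests on the brighter probe, and for Spag5, Cenpa, Cenpf and Mki67 so does the direction with MRK-003.

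Other genes of the cell cycle were read from lists. Of 48 further mitotic genes tested, 45 had a lower mean beside Jagged1 cells in DMSO, with a median of -0.51. With MRK-003 beside Jagged1 cells 44 were higher, with a median of 0.39. Without the block limma called 0 in either comparison, against 0.0385% of all genes lower and 1.01% higher. With the block it called 23 lower and 18 higher, against 2.40% and 5.71% of all genes. Among these 48, Zwilch of the kinetochore differed by -0.52 and 0.47, Troap by -0.51 and 0.60, and the kinase Melk by -0.67. The 13 condensin and cohesin genes, which shape and hold chromosomes, had medians of -0.50 and 0.27 and 0 calls without the block. With the block 1 was called lower and 3 higher, against the same 2.40% and 5.71% of all genes. In this list Smc2 differed by -0.67 and 0.86, and Ncapg2 by -0.54 and 0.86. The 14 subunits and direct regulators of the anaphase-promoting complex moved less, with medians of -0.11 and 0.13 and 0 calls without the block. Its inhibitor Fbxo5, at -0.50 (blocked adjusted p 0.031) and 0.63 (0.0069), was the 1 gene of that list called in both with the block, and Cdc26 was called lower with MRK-003 (-0.35, 0.041). Over all genes 2.40% were called lower with Jagged1 in that fit and 5.71% higher with MRK-003, and 895 of 23388 were called lower with MRK-003. Single calls among 14 genes do not set this list apart from all genes.

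The 36 DNA replication genes, active before mitosis, were all lower with Jagged1 in DMSO, with a median of -0.53, and all higher with MRK-003 beside Jagged1 cells, where the median was 0.63. In the second comparison limma called 14 of them higher without the block and 30 with it, against 1.01% and 5.71% of all genes. In the first it called 0 without the block and 15 lower with it, against 0.0385% and 2.40% of all genes. The replication factor Mcm10 differed by -0.59 and 0.77 (adjusted p 0.0140 without the block for the second), Gins1 by 0.87 (0.0140) and the licensing factor Cdc6 by -0.61 and 0.75 (0.0153). In vector co-cultures the replication genes had a median of 0.16 with MRK-003 and 31 of 36 above 0, whereas the mitotic members had a median of -0.14 and 5 of 40 above 0; the difference between these medians was not tested.

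The 24 regulators of mitotic transcription had medians of -0.22 and 0.24. Foxm1, the forkhead factor of mitotic genes, measured -0.15 and -0.05 in vector DMSO, -0.51 and -0.33 in Jagged1 DMSO, -0.06 and -0.03 in vector MRK-003, and -0.11 and 0.06 in Jagged1 MRK-003. Its Jagged1 DMSO arrays were the 2 lowest; the difference was -0.32 (blocked adjusted p 0.092) and with MRK-003 0.40 (0.030, and 0.17 without the block). Mybl2, the B-Myb factor, differed by -0.23 (0.31) and 0.39 (0.066). The atypical repressors E2f7 (-0.52 and 0.86) and E2f8 (-0.84 and 0.92) differed more, and E2f7 with MRK-003 passed without the block, at an adjusted p of 0.0235. The 15 G1 cyclins and inhibitors had medians of -0.11 and 0.08, with 2 calls in limma without the block, both higher with MRK-003. These were Ccnd1, cyclin D1 (0.76, adjusted p 0.0359), and Cdkn2c, an inhibitor of its kinases (0.75, 0.020). Of all genes 1.01% were called higher in that fit. Cdkn1a, which encodes the cell cycle inhibitor p21, was read at 0.66 and -0.23 in vector DMSO, 0.69 and 0.39 in Jagged1 DMSO, 0.40 and -0.92 in vector MRK-003, and 0.56 and -1.02 in Jagged1 MRK-003. The slides differed more than the groups, and its differences of 0.32 and -0.77 did not pass (blocked adjusted p 0.58 and 0.13).

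**Figure D5:**
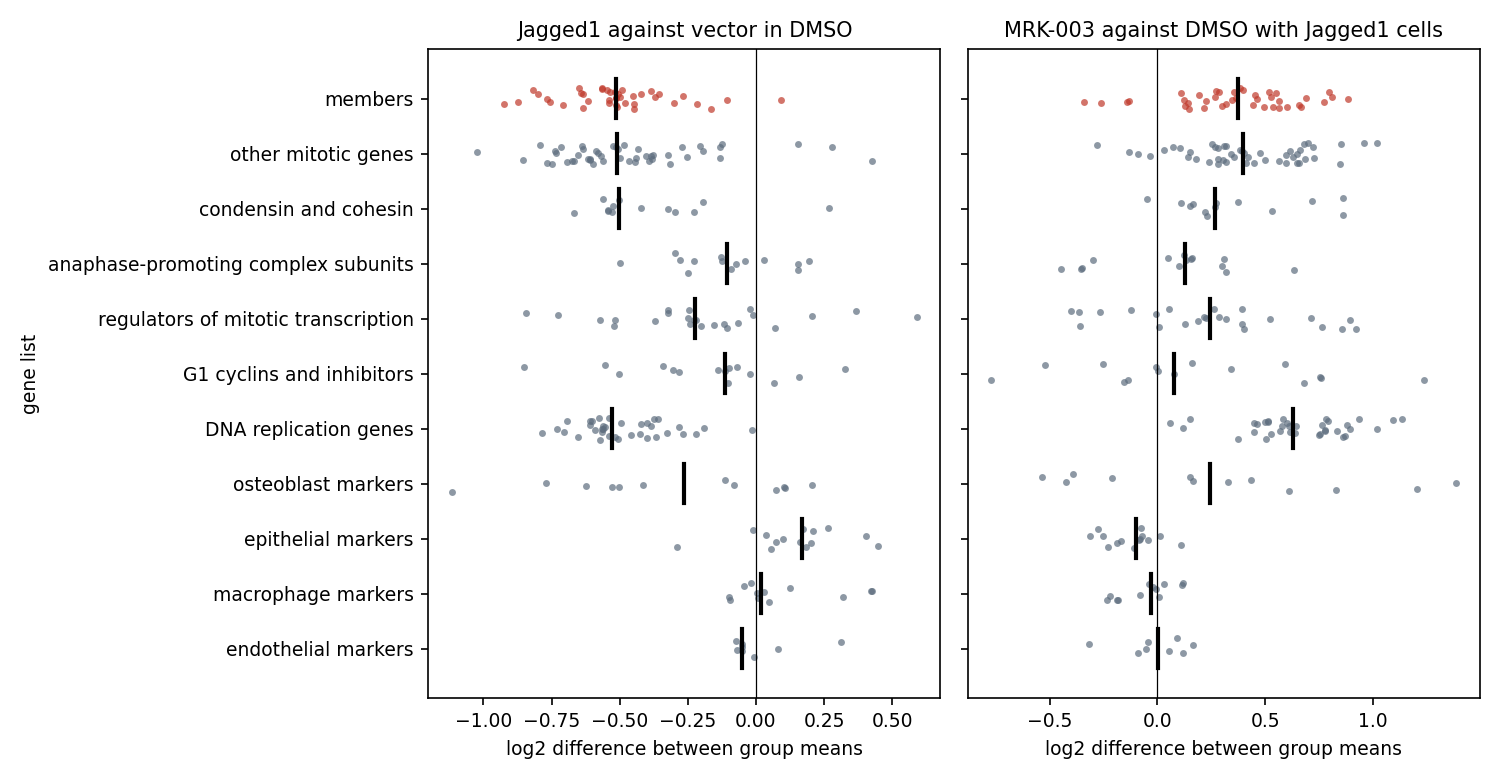
Log2 difference between group means (x axis) of each gene (points, spread vertically for view) in the members and 10 other lists (rows), for Jagged1 against vector in DMSO (left) and MRK-003 against DMSO with Jagged1 cells (right); black bars are medians. The members, the other mitotic genes and the DNA replication genes have medians of -0.51, -0.51 and -0.53 on the left and 0.37, 0.39 and 0.63 on the right.

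The Notch readout went with these groups. Hey1, a direct Notch target, measured -0.61 and -0.56 in vector DMSO, 3.29 and 3.05 in Jagged1 DMSO, -2.68 and -2.18 in vector MRK-003, and -2.11 and -2.12 in Jagged1 MRK-003. Hey1 was therefore highest in the group where the mitotic genes were lowest, and with MRK-003 it lay below its vector DMSO level in both co-cultures. The Hey1 difference was 3.76 with Jagged1 in DMSO (adjusted p 0.00237 without the block) and -1.84 with MRK-003 in vector co-cultures (0.16 without the block and 0.042 with it). Over 9 Notch targets the medians were 0.97 with Jagged1 in DMSO and -1.28 with MRK-003 in the Jagged1 co-cultures.

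Markers of the cell types and array quality were read beside these results. All 12 osteoblast markers were well above background on all 8 arrays, with a median of -0.26 with Jagged1 in DMSO and 0.25 with MRK-003. Of the 12, 8 were lower and 4 higher with Jagged1, from -1.12 for Alpl to 0.20 for Sparc. With MRK-003 8 were higher and 4 lower, from -0.53 for Col1a2 to 1.39 for Alpl. Sparc and Col1a2 were named after their values were seen. Without the block limma called 0 with Jagged1 and 1 higher with MRK-003, Twist1 (1.20, adjusted p 0.0098), against 1.01% of all genes called higher. With the block it called 3 lower with Jagged1 and 5 higher with MRK-003, against 2.40% and 5.71% of all genes. As parts per 1000000 of the array's summed Cy3 signal, the 18 epithelial markers came to 84.4 to 87.8 in vector DMSO, 95.2 to 106 in Jagged1 DMSO, 81.1 to 99.6 in vector MRK-003 and 81.6 to 88.8 in Jagged1 MRK-003, against 5117 to 8055 for the osteoblast markers; 14 of the 18 were well above background on all 8 arrays, Esrp1 and Ocln were so on none, and the 14 tested had medians of 0.17 and -0.10. Macrophage markers summed to 52.4 to 67.2 over all groups. Endothelial markers came to 21.3 to 24.2 in vector DMSO and 25.1 to 28.2 in Jagged1 DMSO. With MRK-003 they came to 21.3 to 26.3 in vector and 21.6 to 23.4 in Jagged1 co-cultures. Like the epithelial sums, they were thus higher in Jagged1 DMSO than in vector DMSO. Of the 10 endothelial markers, however, 6 were well above background on all 8 arrays and Tie1 was so on none. Of the 8 tested, 2 were higher and 6 lower with Jagged1 in DMSO, with a median of -0.05. The higher sum was therefore not a rise of most of these markers. All these sums are of signals without background subtraction. The part of these shifts in the mitotic genes' values was not tested. Median Cy3 signals were 165 to 204 on slide 1 and 76.5 to 117 on slide 2. The limit on local background changed 249 to 650 Cy3 spots and 647 to 1451 Cy5 spots on each of the 8 arrays, up to 3.22% of spots. The highest local backgrounds in Cy3 were on Jagged1 DMSO replicates 1 and 2 and Jagged1 MRK-003 replicate 2.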

How the data were processed

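The 8 Agilent arrays were read by the authors with Feature Extraction 9.5.3.1, per the file headers, and probe positions are on mm7. The deposited intensity values used were the mean signal and median local background in both channels, without normalization, and, as an alternative, the software's processed signals. Deposited 0 or 1 marks gave outliers, saturation and spots well above background. The authors' deposited log2 value table equalled log2 Cy3 over Cy5 of the processed signals plus 1 constant per array (100% of spots within 0.02; column medians 0.11 to 0.21), which gives its scale, centring and direction. Per the labels' protocols, 175 ng of RNA was labelled and dyes were not swapped.

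Local background was limited to its median plus 3 MAD per array and channel, then corrected by normexp (offset 50), and ratios were normalized by loess within arrays, control spots at weight 0. Outlier spots were left out and spots of a probe averaged over 41174 probes. Each gene was represented by its brightest probe and tested if, in 1 group or more, both arrays were marked well above background in Cy3. Names came from RefSeq by accession for 22951 probes, otherwise from the files. The 8 arrays were fitted together on 4 group means with limma 3.58.1 (R 4.3.3), p-values were adjusted over 23388 genes (Benjamini-Hochberg) and calls made under 0.05; the code was tested on simulated data. SE and p-values rest on 2 arrays per group.

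Same-numbered replicates deviated together from their group means (correlations 0.37 to 0.86 over all 6 pairs of groups) and shared a slide per the file headers, so fits with the replicate block are given beside those without. The members and lists were chosen with earlier results of these data known. Per-array values are given for the 6 members with the smallest p in each of Jagged1 against vector in DMSO and MRK-003 against DMSO with Jagged1 cells and for the brightest of each role; of other lists at most 3 genes per comparison, plus Foxm1, Mybl2, Cdkn1a and Hey1. The alternatives were other background and normalization settings, the processed signals, the value table, Cy3 alone, all probes of a gene, the block and leaving out each array.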

Additional observations from a re-analysis of the deposited data

Results flagged for a closer look

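The median difference over the 40 members was -0.51 when Jagged1 and vector co-cultures were compared without the drug and 0.0072 when they were compared with it, and 37 members were lower on both slides in the first. The median for MRK-003 against DMSO was 0.37 with Jagged1 cells and -0.14 with vector cells, opposite in sign on both slides. These medians were picked out because the same contrast differed between the co-cultures or treatments. The difference between the medians was not tested; gene by gene, the interaction called 0 members without the replicate block and 1 with it. With 2 arrays per group, no search for single outlying arrays was made.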

How the results depend on the processing

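The direction of the members' median was the same under all alternatives run for Jagged1 against vector in DMSO, MRK-003 with Jagged1 cells, the interaction and the average MRK-003 effect. Leaving out each array in turn gave medians of -0.69 to -0.35, 0.21 to 0.55, -0.73 to -0.37 and 0.0399 to 0.21 in these 4, -0.17 to 0.18 for Jagged1 against vector in MRK-003 and -0.31 to 0.03 for MRK-003 with vector cells, with 0 members called in all of them. Reversed medians were -0.165 without vector MRK-003 replicate 1 and -0.159 without Jagged1 MRK-003 replicate 2 for Jagged1 in MRK-003, and 0.0301 without vector MRK-003 replicate 1 for MRK-003 with vector cells.

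With the replicate block the members called were 23 (Jagged1 in DMSO), 21 (MRK-003 with Jagged1 cells), 1 (interaction) and 6 (average). With the block and unlimited background they were 2, 4, 0 and 0, where 107, 507, 0 and 604 of all genes were called. The block changed no call among members in the other 2 comparisons. Over all genes, 41 were called for Jagged1 in DMSO, and 4 with no limit on the background, 16 from processed signals, 18 in the authors' value table and 881 with the block. For MRK-003 with Jagged1 cells 493 were called, and in the same order 71, 260, 263 and 2231, with 166 from Cy3 alone. In the block fit without each array, an alternative chosen after seeing the data, 0 to 12 members were called lower with Jagged1 (11 without either Jagged1 MRK-003 array, 3 without Jagged1 DMSO replicate 2) and 0 to 20 higher with MRK-003 (15 without either vector MRK-003 array, 14 without Jagged1 DMSO replicate 1, 6 without Jagged1 DMSO replicate 2, 5 without Jagged1 MRK-003 replicate 1). Each of these fits left a group with a single array, and the number of all genes called also varied widely between them. The counts therefore do not show whether the members lost more calls than other genes did. The median for MRK-003 with Jagged1 cells was 0.319 with no limit on the background (also with the block), 0.458 by median centring, 0.402 from Cy3 alone and 0.296 over all probes of a gene. The average effect was 0.0841 with no limit (also with the block) and 0.0649 over all probes. For Jagged1 in MRK-003 it was 0.0196 with no limit (also with the block), -0.00529 from processed signals, 0.0120 in the authors' value table, 0.0179 by median centring, 0.0106 from Cy3 alone and 0.00209 over all probes.

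Of single members, Jagged1 in DMSO gave reversed differences for Cdc20 by median centring (-0.000606) and for Espl1 with no limit on the background, with or without the block (0.0152), and MRK-003 with Jagged1 cells did so from Cy3 alone for Cenpe (-0.0321), Cenpf (-0.0845) and Ndc80 (-0.0519). Leaving out 1 array reversed Ccnf (-0.321 to 0.109) and Top2a (-0.721 to 0.122) for Jagged1 in DMSO. For MRK-003 with Jagged1 cells it reversed Ccnf (-0.386 to 0.123, and 0.0839 without Jagged1 DMSO replicate 2), Bub1b (-0.336 to 0.0525), Ttk (-0.153 to 0.537, and -0.0351 without Jagged1 MRK-003 replicate 2), Cenpe (-0.250 to 0.506, and -0.105 without Jagged1 DMSO replicate 1), Cenpf (-0.122 to 0.414), Ndc80 (-0.0794 to 0.301) and Top2a (-0.122 to 0.570). The cause of these changes was not tested. The number of arrays limits the precision of every value.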
